A study of Mus musculus with 8 samples.

Results

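All 16498 genes in the authors' deposited table of dual-targeted against wildtype cells are described here, of 16896 genes listed in any of the series' 4 tables. The table compared 3 dual-targeted libraries with 3 wildtype libraries. Of these, 16493 had an adjusted p, and those where it was under 0.05 count as called. TT-seq, which captures the RNA made while cells take up the uridine analogue 4-thiouridine, was run on mouse embryonic stem cells of the line ES-E14TG2a (E14) after 5 min in 500 nM of the analogue. The wildtype libraries are biological triplicates. All dual-targeted cells carried the K122A substitution of histone H3.3 on 3 of its 4 alleles. One genotype, H3f3a A/A H3f3b WT/A, was sampled in 2 clones. A single line had the converse, H3f3a WT/A H3f3b A/A. Each mutant line gave 1 library, so the p-values rest on the spread between lines on the mutant side. The labels describe LIF medium and LIF medium with a pair of kinase inhibitors without saying which was used here.

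H3.3 is the histone H3 variant that enters chromatin outside DNA replication, at active genes, enhancers and some repeats, and it is encoded by H3f3a and H3f3b. The lysine at position 122 lies where the histone core touches the DNA. A short labelling pulse reads RNA as it is made, so introns and unstable RNAs contribute more than in total RNA.

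The tables hold no value for a single library. Group means were therefore rebuilt from the authors' mean counts in the 4 tables, for the 15571 genes in all of them. Rebuilt means are normalized counts and carry no error. All 8 embryonic stem cell markers looked up were listed, with mean counts of 419 to 4210, and 5 of them (Pou5f1, Nanog, Dppa5a, Utf1 and Tdgf1) were called higher. Markers of other cells were listed in part. Of 5 primitive endoderm markers, Gata4, Gata6, Dab2 and Sox7 were listed, with mean counts of 7.29 to 26.3, and Sox7 was called higher. Of 5 trophoblast markers, Krt8 and Krt18 were listed, and Krt8 was called higher. Rebuilt means of Krt18 were 11.5 in wildtype, 14.2 in the clones and 115 in the other mutant line. All 3 neural markers, Sox1, Pax6 and Tubb3, were listed, with summed rebuilt means of 327 in wildtype, 360 in the clones and 375 in the line, and Tubb3 was called higher. Thy1 and Pdgfrb, of 5 fibroblast markers, and Eomes, of 3 mesoderm markers, were listed and not called. Cdx2, Gata3, Elf5, Sox17, Col1a1, Col1a2, Acta2, T and Mixl1 were not listed. The part of other cell types in the results was not tested. The targeted genes were not called in the authors' deposited table, with log2 fold changes of 0.13 ± 0.19 (SE, adjusted p = 0.633) for H3f3a and 0.06 ± 0.36 (adjusted p = 0.8) for H3f3b. Rebuilt means of H3f3b were 2511 in wildtype, 4852 in the clones and 362 in the other mutant line, so its dual-targeted mean joins lines on either side of wildtype.

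Of the genes tested 20.9% were called in the authors' deposited table, 10.8% (1785 genes) higher and 10.1% (1659) lower. The 2 clones alone against the same wildtype libraries had 9.05% of genes higher and 10.3% lower in the authors' deposited table for that comparison. The median log2 fold change over all genes was 0.01. In bulk libraries, fewer cells of a type and less RNA per cell cannot be told apart.

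Genes were split by mean count into 5 strata of equal size, from 6.18 to 28.3, to 86.9, to 231, to 581 and to 5080000 normalized counts. The share called in the authors' deposited table was 11.8% in the lowest stratum, then 20.9%, 22.6% and 23.2%, and 25.9% in the highest. Lower calls were as many as or more than higher calls in the strata 2 and 3, with 330 higher against 358 lower and 341 against 406. In the highest stratum 518 genes were higher and 336 lower. The median size of a called change fell from 1.52 log2 units in the lowest stratum to 0.61 in the highest, while the median standard error fell from 0.37 to 0.18. Of the 1261 called genes that changed at least 2-fold, 361 were in the lowest stratum and 107 in the highest.

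**Figure D1:**
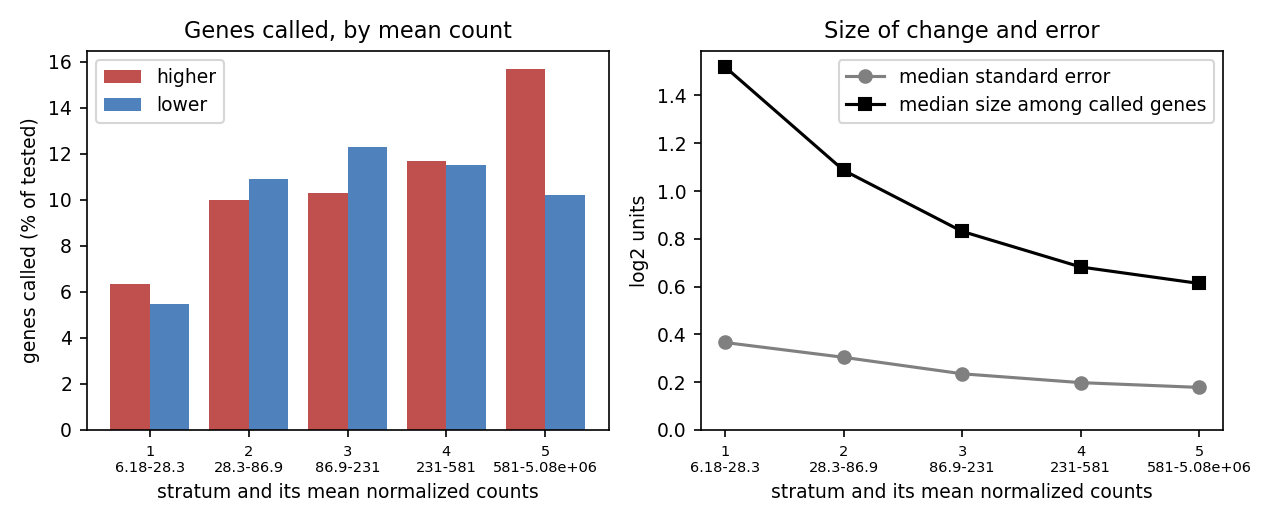
Share of tested genes called higher or lower in dual-targeted lines (left, % of genes) and the median size of called changes with the median standard error (right, log2 units), by stratum of mean normalized count. The highest stratum has 15.7% higher and 10.2% lower, and called changes are smaller where counts are higher.

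With predicted, RIKEN and unnamed genes left out, all 10 of the most abundant called genes were higher, most of them by less than 1 log2 unit. In the authors' deposited table they included Ncl (0.64 ± 0.20, adjusted p = 0.0043), which encodes the nucleolar protein nucleolin, and Hnrnpu (0.70 ± 0.17, adjusted p = 0.000215), a nuclear RNA-binding protein. Rebuilt means of Ncl were 27504 in wildtype, 46474 in the clones and 42312 in the other line. The host gene of small nucleolar RNAs Gas5 (0.49 ± 0.20, adjusted p = 0.0307) and Npm1 (0.47 ± 0.18, adjusted p = 0.0259), the nucleolar chaperone nucleophosmin, also rose in the authors' deposited table. Among well-counted genes the largest changes included Ttn, which encodes the muscle protein titin, with rebuilt means of 397 in wildtype, 3631 in the clones and 1657 in the line. Its log2 fold change in the authors' deposited table was 2.85 ± 0.30. Dnah8, an axonemal dynein gene, went the other way, with rebuilt means of 4864, 1418 and 1447 (-1.70 ± 0.20, adjusted p = 1.1e-15 in the authors' deposited table).

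By the authors' deposited table, the lowest stratum rose most at Zscan4a (6.42 ± 1.41, adjusted p = 4.98e-06), of the family expressed in a rare 2-cell-like state, Fosl1 (6.33 ± 2.62, adjusted p = 0.000277), an AP-1 subunit, and Usp17le (6.15 ± 1.94, adjusted p = 0.000813). Their standard errors are large, and none of the 3 was listed in the clones' table. In all, 243 tested genes were not listed there, of which 76 were called higher and 0 lower with that line included. The tables list no gene under a low mean count, so a gene missing from the clones' table was low in wildtype and the clones, and this direction was fixed by which genes are listed. Cd200, Nefm, Samd5, Insyn2a, Edn1 and Ddr2 are among them. Large falls of the lowest stratum in the authors' deposited table included Tspo2 (-4.08 ± 1.17, adjusted p = 0.00138) and Qrich2 (-3.26 ± 0.64, adjusted p = 2.1e-06).

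Higher and lower calls differed in gene length. Placed genes (98.4% of symbols) were split into 10 length classes of equal number. Genes of 3.44 to 6.85 kb were higher in 16.5% and lower in 7.16% of cases, with a median log2 fold change of 0.10. Genes of 107 to 2960 kb were higher in 8.26% and lower in 18.1%, with a median of -0.12. The shortest class, up to 1.44 kb, was called in only 11.8% and had a median mean count of 26.1. Among genes of the upper 2 mean count strata the shares were 31.0% higher and 5.31% lower at 3.44 to 6.85 kb, and 6.61% higher and 20.8% lower in the longest class. In the clones' table the same classes had 14.8% higher and 6.70% lower, and 6.12% higher and 19.8% lower. Without chromosomes 8, 14 and Y the longest class had a median of -0.10, and 249 of its genes were lower.

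**Figure D2:**
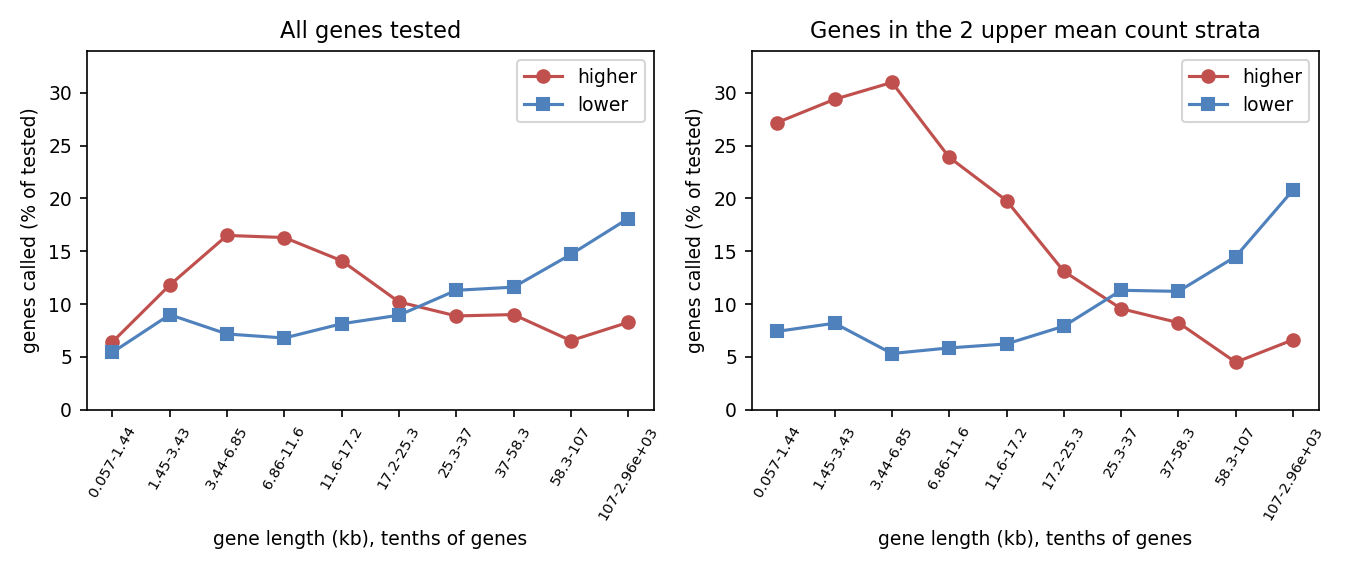
Share of tested genes called higher or lower in dual-targeted lines (%), by class of annotated gene length (kb), for all genes (left) and for the upper 2 mean count strata (right). The higher share peaks at 16.5% and 31.0% in the 3.44 to 6.85 kb class, and the lower share is greatest in the longest class.

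Classes of gene model differed in direction. Of 12632 protein-coding genes 1494 were higher and 1317 lower. Among 1059 genes of the class TEC, short unspliced models still to be experimentally tested, 34 were higher and 157 lower, a median of -0.14. Most TEC genes (846) lay wholly inside a tested protein-coding gene. Of the 154 inside a gene called lower, 88 were lower and 0 higher, and of the 49 inside a gene called higher, 14 were higher and 0 lower. Inside genes not called, 45 of 643 were lower and 5 higher. Sense intronic RNA genes had 23 lower and 10 higher of 177, and 15 of the 31 inside a lower gene were lower. Antisense genes were higher in 11.7% (45 of 384) and lower in 4.95% (19), and processed pseudogenes in 7.87% (45 of 572) and 3.5% (20), beside 10.8% and 10.1% of all genes, so both classes had a low share of lower calls rather than a raised share of higher ones. The labels do not say how the counting used strand, so reads of a short gene and of the gene around it cannot be told apart.

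Neighbouring genes were called together in places. There were 131 runs of at least 3 consecutive tested genes called in the same direction, 57 higher and 74 lower, and 34 of them lay on chromosomes 8 (23) and 14 (11). The runs held 461 of the 3444 called genes. With 20.9% of all genes called some runs arise without regard to position, and their number was not tested. The longest run held 12 predicted or RIKEN genes and no named gene, all lower, at chr5:131972050-132535248 (GRCm38), inside Auts2, itself in a neighbouring run of 8 lower genes. Of the 12 genes, 8 were also lower in the clones. On chromosome 14 Spryd7, Trim13, Dleu2 and Kcnrg headed a run of 7 lower genes over 150 kb, all 7 also lower in the clones. On chromosome 8 a run of 8 lower genes over 176 kb held Letm2, the methyltransferase gene Nsd3, Plpp5 and Ddhd2, and 6 of the 8 were also lower in the clones. Away from these chromosomes, Neurl2, Ctsa, Pltp and Pcif1 were lower together over 63.7 kb of chromosome 2, but only 2 of these 4 were also lower in the clones. Among higher runs was that of Znhit6, Ccn1, Gm17501 and Ddah1 on chromosome 3 (median 1.93), with 3 of the 4 also higher in the clones. Chromosome 8 had 265 of 853 genes lower and 41 higher, a median of -0.27, and chromosome 14 had 120 of 543 lower and 45 higher, a median of -0.18. Other genes named here that lie on chromosome 8 include Mcoln1, Atp6v0d1, Map1lc3b, Gabarapl2, Acsl1, Msmo1, Fanca, Wrn, Arhgef18, Insr and Tubb3. Those on chromosome 14 include Ctsb, Vcl, Nefm, Nefl and Sox7, and neither list is complete. The part of the shift of these chromosomes in their values was not tested.

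Symbols were sorted into 86 families and 32 function lists with 10 or more tested members each. A set is said to lean where the share called in a direction was at least 2 times that of all genes and exceeded the other direction, a rule chosen after the values were seen. By it 17 sets leaned higher, 13 lower and 88 neither. Sets that did not lean include the Zfp zinc fingers (27 higher and 30 lower of 370), the solute carriers (23 and 25 of 236), the kinesins (1 and 2 of 39) and the basic helix-loop-helix factors (5 and 7 of 42).

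**Figure D3:**
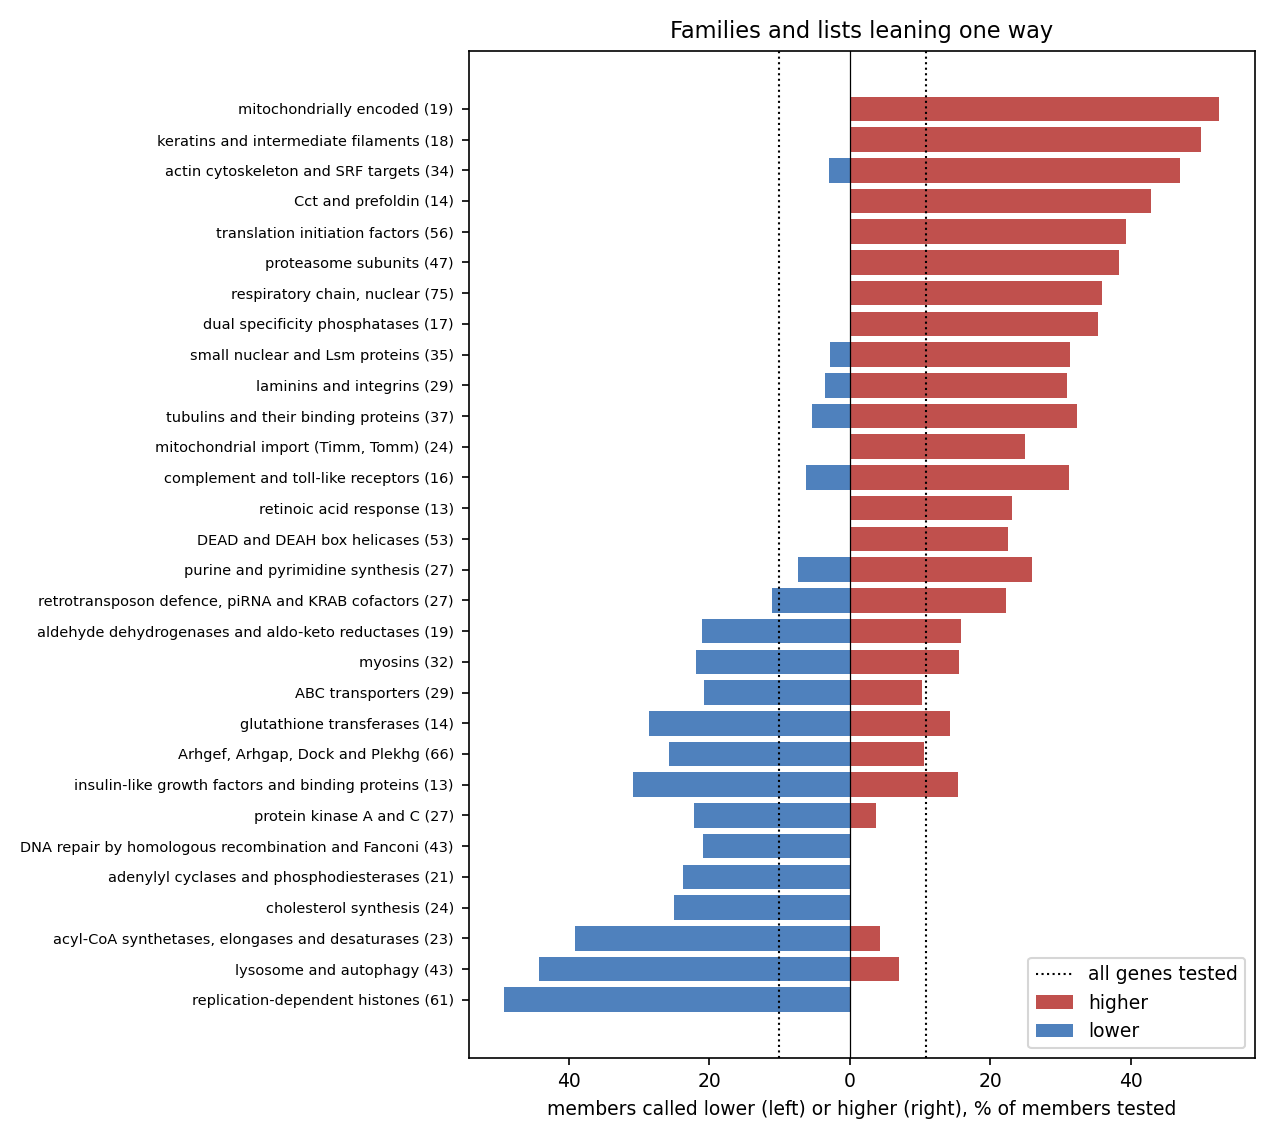
Share of members called lower (left of 0) or higher (right of 0), in % of members tested (number in brackets), for the 30 families and lists that leaned one way. Dotted lines mark the shares over all genes tested, 10.1% lower and 10.8% higher. The replication-dependent histones reach 49.2% lower and the intermediate filaments 50.0% higher.

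Lysosome and autophagy genes were the function list most often lower. Lysosomes break down lipids, sugars and proteins with acid hydrolases, and autophagy delivers the cell's own material to them. Of 43 members, all tested, 19 were lower and 3 higher in the authors' deposited table, a median of -0.33 beside 0.01 for all genes. Away from chromosomes 8, 14 and Y the counts were 13 lower and 2 higher of 36, and in the clones 17 lower and 3 higher. The list's median away from those chromosomes was smaller, -0.20, beside 0.02 for all genes. Over all members, with the median of each gene's length class taken off, the list's median was -0.39. Of the 33 members with a RefSeq promoter window, 7 held TCACGTGA on either strand between 250 bases before and 50 after a start site. That 8-base palindrome is the core of the element that the lysosomal factor TFEB binds, and 2.17% of 10093 protein-coding genes with a window held it. The list names lysosomal genes, so its share was set in part by how it was chosen. Of all 219 protein-coding genes with the palindrome, 14 were higher and 33 lower. A further match in the stretch of Ctsa is left in small letters. The 61 bases around the match are shown for all 7 list members, in the direction of the gene, with a single match in capitals (RefSeq windows, GRCm38.p6).
Ctsa: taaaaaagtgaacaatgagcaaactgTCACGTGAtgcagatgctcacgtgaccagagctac
Ctsd: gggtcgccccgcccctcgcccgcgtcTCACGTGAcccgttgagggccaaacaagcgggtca
Gla: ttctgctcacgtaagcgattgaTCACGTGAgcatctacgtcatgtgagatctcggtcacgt
Cln3: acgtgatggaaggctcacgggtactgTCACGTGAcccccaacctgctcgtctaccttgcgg
Mcoln1: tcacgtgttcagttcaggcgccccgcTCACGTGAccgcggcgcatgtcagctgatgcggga
Atp6v0d1: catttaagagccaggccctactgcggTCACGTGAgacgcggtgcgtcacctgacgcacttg
Atp6v1a: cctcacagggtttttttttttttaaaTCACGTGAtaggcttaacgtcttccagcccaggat

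Ctsa, at chr2:164833734-164833794 on the forward strand, Mcoln1, at chr8:3500447-3500507 on the forward strand, and Atp6v0d1, at chr8:105566034-105566094 on the reverse strand, were lower. Ctsd, Gla, Cln3 and Atp6v1a were not called, with log2 fold changes in the authors' deposited table of -0.03 ± 0.21, 0.37 ± 0.25, -0.33 ± 0.19 and 0.20 ± 0.18. The match is a description of the letters in these windows.

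Of the members named here, the hydrolase genes Hexa and Ctsa fell furthest, while the hydrolase genes Ctsd and Gla were not called. Hexa encodes a subunit of a hydrolase that trims gangliosides. Rebuilt means of Hexa were 438 in wildtype, 117 in the clones and 130 in the other line. In the authors' deposited table Hexa changed by -1.78 ± 0.22 (adjusted p = 4.06e-14). The clones and the line lay on the same side of wildtype and close to each other. The protective protein cathepsin A, Ctsa, had rebuilt means of 628, 172 and 280 (-1.52 ± 0.23, adjusted p = 8.78e-10 in the authors' deposited table). The cysteine proteases Ctsb (-1.09 ± 0.23, adjusted p = 7.97e-06) and Ctsl (-0.72 ± 0.20, adjusted p = 0.000846) were also lower in the authors' deposited table.

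Membrane and transport members fell too. Rebuilt means of Mcoln1, the lysosomal calcium channel mucolipin 1, were 1189 in wildtype, 532 in the clones and 483 in the line (-1.15 ± 0.17, adjusted p = 6.18e-10 in the authors' deposited table). Lamp2, a membrane glycoprotein of the lysosome, had 1790, 832 and 799 (-1.05 ± 0.20, adjusted p = 1.54e-06 in the authors' deposited table). The cholesterol exporters Npc2 (-0.95 ± 0.18, adjusted p = 9.23e-07) and Npc1 (-0.53 ± 0.21, adjusted p = 0.0246) had lower values in the authors' deposited table. Of the autophagosome proteins, Map1lc3b (-1.08 ± 0.20, adjusted p = 8.06e-07), the cargo receptor Sqstm1 (-0.66 ± 0.22, adjusted p = 0.00623) and Gabarapl1 (-0.64 ± 0.26, adjusted p = 0.0234) had lower values in the authors' deposited table. By the authors' deposited table, 3 members rose, Gabarapl2 (1.22 ± 0.29, adjusted p = 7.9e-05), Atg16l1 (0.47 ± 0.16, adjusted p = 0.0128) and Tfeb (0.89 ± 0.27, adjusted p = 0.0022), which encodes the factor named above. Rebuilt means of all 19 lower members were below wildtype in both genotypes. These members were called with the same 3 mutant lines, so that side was largely set by how they were picked. The called members of every other leaning set with rebuilt means also had both genotypes on the side of the call.

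**Figure D4:**
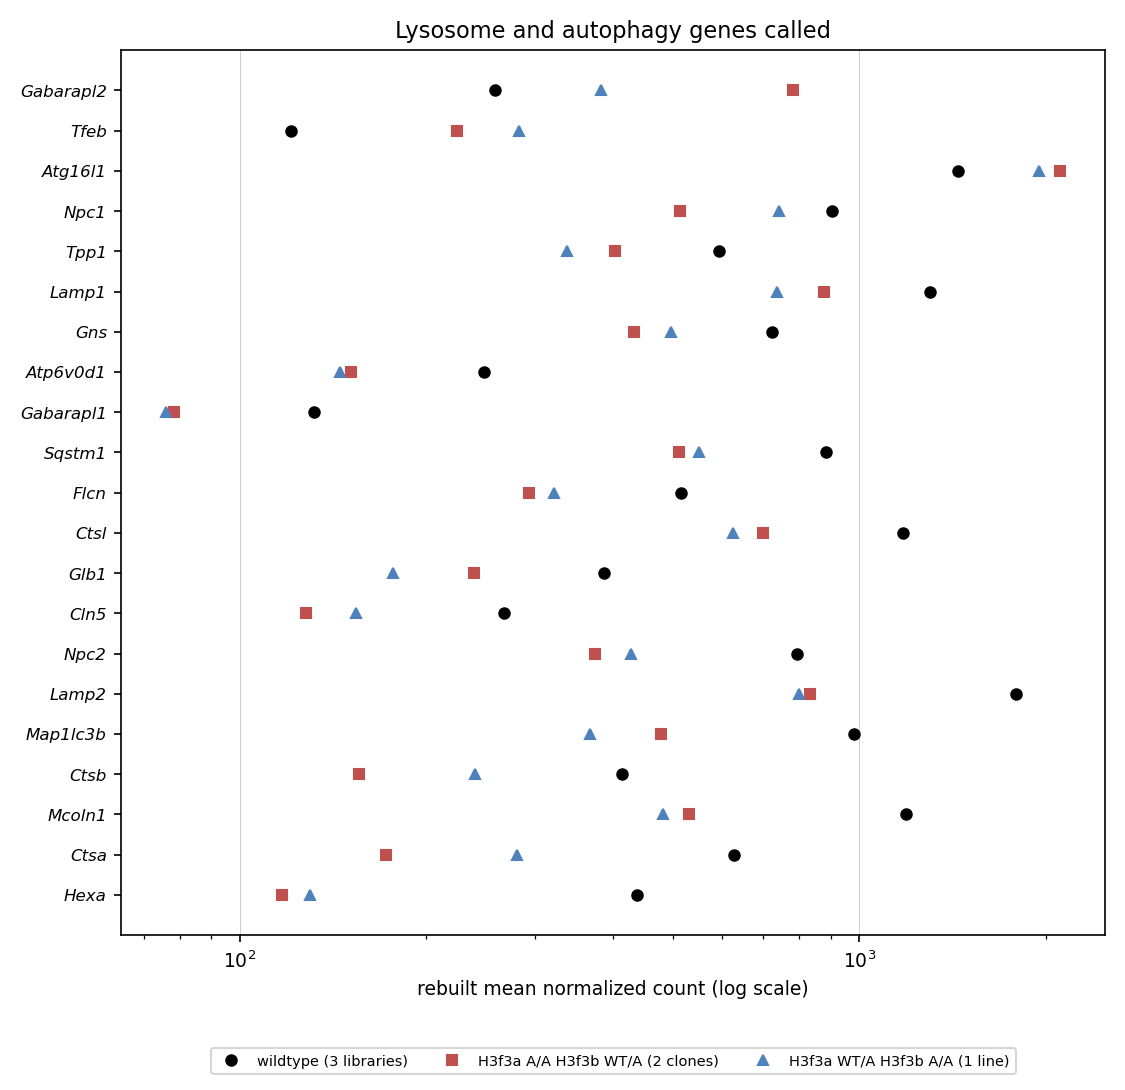
Rebuilt mean normalized counts (log scale, no error) of 21 of the 22 called lysosome and autophagy genes by genotype, from 3 wildtype libraries, 2 clones (H3f3a A/A H3f3b WT/A) and 1 other line (H3f3a WT/A H3f3b A/A). Both mutant values lie left of wildtype for 18 genes and right of it for Gabarapl2, Tfeb and Atg16l1. The genes were called with these same lines, so the side is no separate check.

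Genes of fatty acid activation, elongation and desaturation were lower in 9 of 23 cases and higher in 1, with a median of -0.39. Acss1 and Acss2 make acetyl-CoA from acetate in mitochondria and in the cytosol and nucleus. Rebuilt means of Acss2 were 191 in wildtype, 77.5 in the clones and 65.1 in the line (-1.28 ± 0.25, adjusted p = 1.2e-06 in the authors' deposited table). The stearoyl-CoA desaturases Scd1 (-1.49 ± 0.24, adjusted p = 6.12e-09) and Scd2 (-1.05 ± 0.15, adjusted p = 1.82e-10) and the desaturases Fads1 (-0.64 ± 0.19, adjusted p = 0.0023) and Fads2 (-1.09 ± 0.25, adjusted p = 3.34e-05) had lower values in the authors' deposited table. Acsl1, which activates long-chain fatty acids, had rebuilt means of 666, 229 and 237 (-1.47 ± 0.18, adjusted p = 5.92e-14 in the authors' deposited table). The exception was Acsl5 (0.63 ± 0.31, adjusted p = 0.0425), whose value in the clones alone was 0.31 ± 0.27 (adjusted p = 0.328) in the authors' deposited tables.

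Cholesterol synthesis genes were lower in 6 of 24 cases and higher in 0, a median of -0.27. Msmo1, a sterol demethylase gene on chromosome 8, had rebuilt means of 1797 in wildtype, 747 in the clones and 714 in the line (-1.23 ± 0.17, adjusted p = 3.28e-11 in the authors' deposited table). Srebf2 (-0.51 ± 0.17, adjusted p = 0.0068), which encodes the main activator of this pathway, was lower in the authors' deposited table. Away from chromosomes 8, 14 and Y, 4 of 21 members were lower, with a median of -0.21. Among ABC transporters, 6 of 29 were lower and 3 higher. Their share of 20.7% lower only just met the rule for leaning, beside 10.1% of all genes. At a mean count of 50 or more 5 of 24 were lower, beside 1308 of 11557 genes. The cholesterol exporter Abca1 rose (1.39 ± 0.24, adjusted p = 3.67e-08) and the related Abcg1 fell (-1.10 ± 0.26, adjusted p = 5.03e-05) in the authors' deposited table.

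Genes of homologous recombination and the Fanconi pathway, which repair broken and cross-linked DNA, were lower in 9 of 43 cases and higher in 0. Their share of 20.9% only just met the rule for leaning, beside 10.1% of all genes. All 43 had a mean count of 50 or more, and 1308 of the 11557 genes at that level were lower. Fanca, a core subunit, had rebuilt means of 1277 in wildtype, 541 in the clones and 565 in the line (-1.16 ± 0.18, adjusted p = 1.72e-09 in the authors' deposited table). The recombination genes Rad51b (-1.06 ± 0.25, adjusted p = 7.9e-05) and Rad51c (-0.72 ± 0.24, adjusted p = 0.00588), the checkpoint kinase gene Chek2 (-0.62 ± 0.18, adjusted p = 0.002) and the helicase genes Blm (-0.57 ± 0.19, adjusted p = 0.0063) and Wrn (-0.63 ± 0.23, adjusted p = 0.0123) were also lower in the authors' deposited table. In the clones 8 were lower, and away from chromosomes 8, 14 and Y 7 of 41 were. The replication-dependent histones had 30 of 61 lower and 0 higher, in runs along chromosome 13, and near-identical copies there can share reads.

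Signalling families of long genes were lower in part. Adenylyl cyclases and phosphodiesterases, which make and break cyclic AMP, had 5 of 21 lower and 0 higher, with a median gene length of 115 kb. Their median of -0.31 was -0.19 once the median of the length class was taken off. In the clones 3 members were lower. Pde4d, a cyclic AMP phosphodiesterase, had rebuilt means of 721, 355 and 331 (-0.97 ± 0.22, adjusted p = 4.89e-05 in the authors' deposited table). Of 66 nucleotide exchange factors and GTPase activators (Arhgef, Arhgap, Dock and Plekhg genes) 17 were lower and 7 higher, and away from chromosomes 8, 14 and Y 12 of 56 were lower. Arhgef18 (-0.95 ± 0.17, adjusted p = 2.8e-07) fell and Arhgef26 (1.79 ± 0.27, adjusted p = 2.79e-10) was up in the authors' deposited table. In the insulin-like growth factor family the receptors Igf1r (-1.17 ± 0.23, adjusted p = 2.54e-06) and Insr (-1.25 ± 0.24, adjusted p = 9.38e-07) had lower values in the authors' deposited table, Insr lying on chromosome 8. Its RNA-binding members parted, with rebuilt means of Igf2bp2 at 1088 in wildtype, 189 in the clones and 387 in the line, and of Igf2bp1 at 2588, 4718 and 5218.

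Actin cytoskeleton genes and targets of the serum response factor SRF leaned higher. SRF switches on genes of the actin filament when monomeric actin is low. Of 44 listed genes 34 were tested, 16 were higher and 1 lower in the authors' deposited table, a median of 0.41. In the clones 10 were higher and 2 lower. Of the 30 members with a promoter window, 7 held a CArG box, the motif that SRF binds, beside 1.47% of all 10093. The list names SRF targets, so its share was set in part by how it was chosen. Of all 148 protein-coding genes with the box, 23 were higher and 26 lower. The 61 bases around the match are shown for the 4 of these that were called, with a single match in capitals, in the direction of the gene. A further match in the stretch of Srf, ccataaaagg, is left in small letters.
Cnn2: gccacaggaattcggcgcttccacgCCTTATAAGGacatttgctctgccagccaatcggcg
Myl6: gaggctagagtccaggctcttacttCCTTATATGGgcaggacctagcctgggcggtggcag
Srf: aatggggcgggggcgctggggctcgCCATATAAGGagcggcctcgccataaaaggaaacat
Lima1: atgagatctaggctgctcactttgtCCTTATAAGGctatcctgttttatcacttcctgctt

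Their positions (GRCm38.p6) were chr10:79988519-79988579 on the forward strand for Cnn2, and on the reverse strand chr10:128493024-128493084 for Myl6, chr17:46556209-46556269 for Srf and chr15:99820161-99820221 for Lima1. Cnn2, Myl6 and Srf were higher, and Lima1, with the same kind of match, was the member that fell. Actg1, Vcl and Fhl1 also held a CArG box and were not called.

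Cnn2, the actin-binding calponin 2, had rebuilt means of 48.9 in wildtype, 129 in the clones and 316 in the line (1.86 ± 0.36, adjusted p = 9.23e-07 in the authors' deposited table). Filamin C, Flnc, which cross-links filaments, had 45.4, 147 and 265 (1.92 ± 0.33, adjusted p = 4.64e-08 in the authors' deposited table). For 11 of the 16 higher members the line lay above the clones. The profilin gene Pfn1 (1.09 ± 0.20, adjusted p = 2.95e-07), the severing factor cofilin, Cfl1 (0.83 ± 0.19, adjusted p = 8.83e-05), and ezrin, Ezr (0.89 ± 0.17, adjusted p = 2.66e-06), which ties filaments to the membrane, were up in the authors' deposited table. Lima1, which stabilises filaments, had rebuilt means of 2022, 505 and 888 (-1.59 ± 0.25, adjusted p = 2.23e-09 in the authors' deposited table). Srf itself (0.64 ± 0.30, adjusted p = 0.0361) was called with all 3 lines and not in the clones alone (0.38, adjusted p = 0.239) in the authors' deposited tables.

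**Figure D5:**
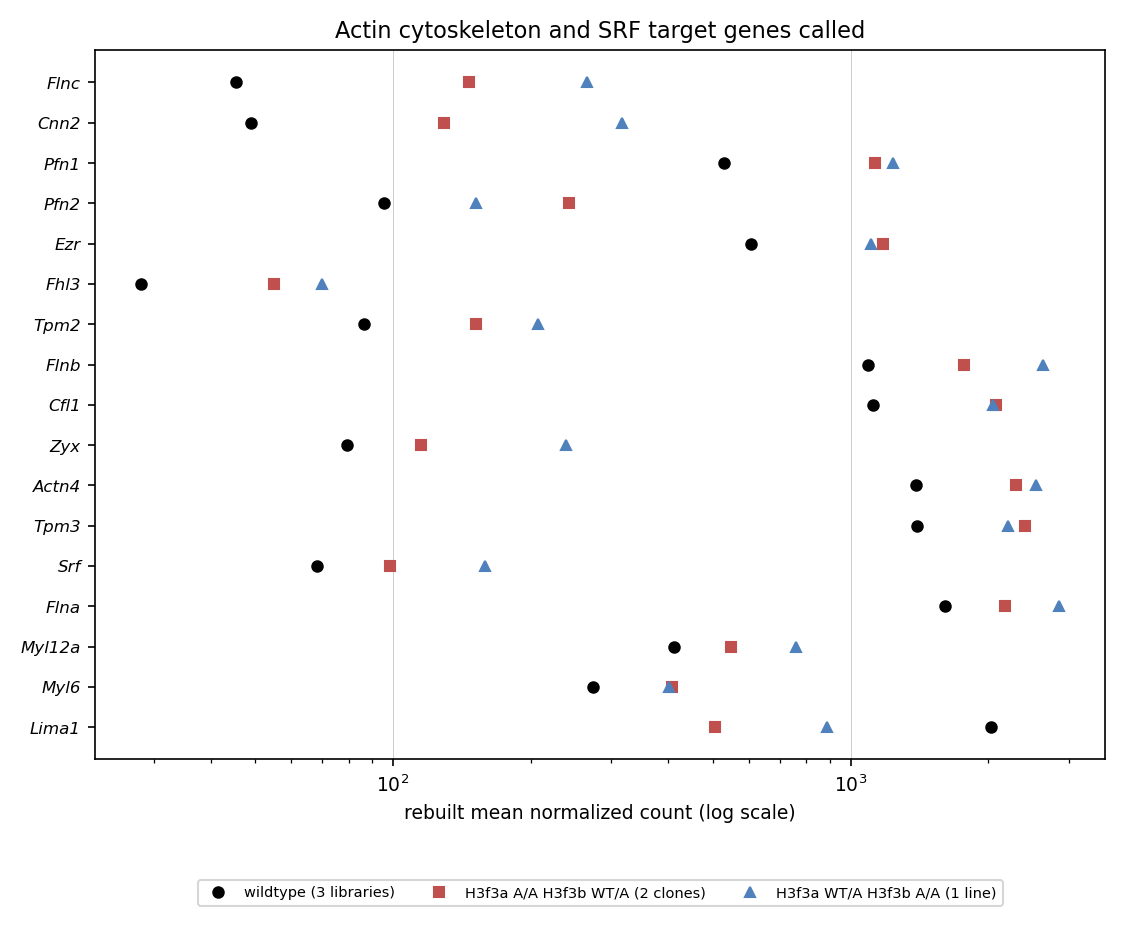
Rebuilt mean normalized counts (log scale, no error) of the 17 called actin cytoskeleton and SRF target genes by genotype, from 3 wildtype libraries, 2 clones (H3f3a A/A H3f3b WT/A) and 1 other line (H3f3a WT/A H3f3b A/A). Both mutant values lie above wildtype for 16 genes, and Lima1 lies below it. The genes were called with these same lines, so the side is no separate check.

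Other structural families also leaned higher. Intermediate filaments, the rope-like fibres of cytoplasm and nuclear lamina, were higher in 9 of 18 cases and lower in 0. In the clones 7 of 17 were higher and 0 lower. In the authors' deposited table they included the neurofilament chains Nefm (3.60 ± 0.62, adjusted p = 4.83e-08), Nefh (1.97 ± 0.31, adjusted p = 2.04e-09) and Nefl (1.79 ± 0.44, adjusted p = 7.78e-05), the keratin Krt8 (2.21 ± 0.65, adjusted p = 0.000622) and the lamin gene Lmna (1.32 ± 0.35, adjusted p = 0.000289). Rebuilt means of Nes, nestin, were 37.7 in wildtype, 114 in the clones and 387 in the line. In the clones alone Krt8 was not called (adjusted p = 0.0892 in the authors' deposited table). Nefm was not listed for the clones, so its direction was fixed by which genes are listed. Tubulins and their binding proteins were higher in 12 of 37 cases and lower in 2. Among them Stmn2, a microtubule destabiliser of neurons, had rebuilt means of 723, 2126 and 1494 (1.36 ± 0.20, adjusted p = 6.6e-11 in the authors' deposited table). Laminins, the sheet of the basement membrane, and their integrin receptors were higher in 9 of 29 cases and lower in 1. The laminin chain gene Lama3 had rebuilt means of 26.6 in wildtype, 129 in the clones and 109 in the line, so both genotypes lay above wildtype. Itgav (-0.67 ± 0.21, adjusted p = 0.00325) was the member that fell in the authors' deposited table.

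Several families of the protein-making and energy machinery leaned higher. Translation initiation factors were higher in 22 of 56 cases and lower in 0, a median of 0.37 (0.28 with the length class taken off), and 14 were higher in the clones. Eif5a had rebuilt means of 1772 in wildtype, 3836 in the clones and 3895 in the line (1.08 ± 0.17, adjusted p = 1.05e-08 in the authors' deposited table). Eif2s2, a subunit of the factor that brings the initiator transfer RNA, had 2788, 8111 and 5794. Nuclear-encoded subunits of the respiratory chain were higher in 27 of 75 cases and lower in 0, with 15 higher in the clones. Cox7c (1.12 ± 0.19, adjusted p = 5e-08) and Cox6c (0.98 ± 0.22, adjusted p = 4e-05), both of cytochrome c oxidase, were up in the authors' deposited table. The nuclear-encoded subunits had a median of 0.39. Genes of the mitochondrial genome were higher in 10 of 19 cases and lower in 0, with a median of 1.03. They encode the other subunits and also transfer RNAs, such as mt-Tl1, mt-Ti, mt-Tq and mt-Tm, which lay with mt-Nd1 in a higher run. Their median is therefore not a value of the subunits alone. Proteasome subunits were higher in 18 of 47 cases and lower in 0. Psmb7, of the catalytic core, had rebuilt means of 902, 1549 and 1555.

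RNA helicases of the DEAD and DEAH box families were higher in 12 of 53 cases and lower in 0, and small nuclear ribonucleoprotein and Lsm genes in 11 of 35 and lower in 1. The helicases' share of 22.6% only just met the rule for leaning, beside 10.8% of all genes. At a mean count of 50 or more 12 of 50 helicases were higher, beside 1420 of 11557 genes. Snrpd3, a core protein of spliceosomal particles, had rebuilt means of 642, 1077 and 1041 (0.67 ± 0.20, adjusted p = 0.00248 in the authors' deposited table). Mitochondrial import genes were higher in 6 of 24 cases, led by Tomm7 (1.00 ± 0.22, adjusted p = 3.46e-05 in the authors' deposited table). These families differed in gene length. The median was 5.92 kb for mitochondrial import genes, 7.19 kb for the nuclear-encoded respiratory chain, 9.81 kb for small nuclear and Lsm genes and 12.4 kb for the proteasome, beside 17.2 kb for all genes. Translation initiation factors (18 kb) and the helicases (22.8 kb) lay above that.

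Dual specificity phosphatases, which remove phosphate from MAP kinases, were higher in 6 of 17 cases and lower in 0, with 3 higher and 1 lower in the clones. Dusp9 had rebuilt means of 67.3 in wildtype, 257 in the clones and 211 in the line (1.76 ± 0.26, adjusted p = 2.57e-10 in the authors' deposited table). Of 27 genes of retrotransposon defence 6 were higher and 3 lower. The higher share of 22.2% only just met the rule for leaning, beside 10.8% of all genes. At a mean count of 50 or more 4 of 21 were higher, beside 1420 of 11557 genes. Tex19.1, which restrains mobile elements in germ cells, had rebuilt means of 66.4, 645 and 232, and Mov10, an RNA helicase, fell from 945 to 331 and 628.

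The clones and the line differed widely at some called genes. Over the 2726 called genes that had rebuilt means and averaged at least 50 counts, the line was at least 2 times the clones at 95 and the clones at least 2 times the line at 48. Stk31, a germ cell kinase gene, had rebuilt means of 48.3 in wildtype, 636 in the clones and 130 in the line. Platr3, a long noncoding RNA of pluripotent cells, had 141, 1354 and 383. Lefty1, an inhibitor of Nodal, had 875, 116 and 443, so the line lay between. Ccn1, a matrix protein induced by YAP and SRF, had 31.8, 172 and 477. These differences have no replicate check on the side of the line, which gave 1 library.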

How the data were processed

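TT-seq libraries of wildtype and dual-targeted cells were compared through tables of the authors' own DESeq2 results. The submitters' processing notes name mm10 and GRCm38.p6 as builds and, without versions, DESeq2, featureCounts, STAR, deepTools and SAMtools. The deposited mean is a signal, normalized counts averaged over all libraries of a comparison. Log2 fold changes and their standard errors were made by the authors, and are read here as shrunken, since 100% of called genes had a smaller change than their p implies. The p-values and adjusted p-values are the authors' own. Depth is unknown, since no value per library was used.

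Group means were rebuilt by subtraction between the 4 tables after scaling (0.984, 1.06 and 0.957). Simulated data tested the scales and the ratio of dual-targeted to wildtype means. The separate means of the clones and of the line were not tested. Of 2726 called genes checked, 2726 had the deposited sign in the rebuilt ratio of dual-targeted to wildtype. Gene positions came from GENCODE M21, and promoter windows from RefSeq, matched for 82.0% of protein-coding genes off chromosome 18. Python 3.11.15, numpy 2.4.6 and pandas 2.3.3 were used. Members and lists were chosen with earlier results of these data known. Named genes were the 20 largest rises and falls with a mean count of 50 or more, 3 each way per stratum, the 10 most abundant called, up to 4 called members of each set and the targeted genes; further members, runs and genes that differ between lines were chosen after their values were seen. Alternatives tried included stricter thresholds, other strata, fewer chromosomes and the clones alone. Some genes that the rule names are not reported here.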

Additional observations from a re-analysis of the deposited data

How the results depend on the processing

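The count of called genes moved from 3444 to 2000 at an adjusted p under 0.01 (1032 higher and 968 lower) and to 1261 with at least a 2-fold change (640 higher and 621 lower). A mean count of 50 or more, another adjustment over all p, dropping chromosomes 8, 14 and Y, and leaving out the third line (the clones' table, 3021 genes, 1416 higher and 1605 lower) kept each count within 1.5 times. Stratum medians moved by less than the median standard error of single genes, a measure too wide to test a median over many genes. That of the lowest stratum went from 0.0152 to -0.0002 without the third line. Set against the length class it was -0.0049. With the fold change set against its length class, an alternative chosen after seeing the data, 9 function lists leaned, against 8. With a mean count of 50 or more 5 did, and without the third line 6 did. Of 453 named genes with a value in the clones, 419 kept their side of the threshold and direction, 33 were no longer called and 1, H3f3b, became called. Tables normalized separately limit how far fold sizes can be compared. No paired analysis was possible because the tables hold no value per library, and the labels' clone numbers name lines, not partners of wildtype libraries.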
